A study of Mus musculus with 6 samples.

Results

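The genes described here encode the route from glucose uptake to lactate: the transporter Slc2a1 and the enzymes Hk1, Hk2, Gpi1, Pfkl, Aldoa, Gapdh, Pgk1, Pkm and Ldha. They were taken by symbol from the deposited tables of 55401 gene IDs, through the GENCODE mouse annotation. The 10 symbols matched 11 IDs, because Aldoa has a second ID at its 5′ side. Of the 11 IDs, 10 passed a filter of 1 FPKM or more (fragments per kilobase of gene, scaled to the depth of the library) in at least 3 libraries. The second Aldoa ID did not. RNA had been sequenced in bulk from cells isolated from the lamina propria, the connective tissue layer under the gut epithelium, of mouse colon. In 3 libraries the donors were Apc Min/+ males of 5 to 6 weeks gavaged with 20 mg/kg atorvastatin on alternate days, and in the other 3 they were Apc Min/+ males of the same age gavaged on that schedule with the vehicle, 2% Tween 80. Every group thus carried the germline Min allele of Apc, also in the lamina propria cells, and no group with wild-type Apc was analysed here. The labels give neither the length of treatment nor whether a library is 1 mouse or a pool. The p-values therefore rest on differences among libraries whose origin in separate mice is not stated, and that spread may be technical.

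Glycolysis splits glucose into pyruvate in the cytosol, and lactate dehydrogenase turns pyruvate into lactate while restoring the NAD+ that the pathway needs. Several steps are served by isoenzymes made from separate genes, so a tissue can be described by which copy it uses. Many of these genes are known targets of HIF-1, the transcription factor that builds up at low oxygen, and of Myc. In the gut wall, activated macrophages, dendritic cells and lymphocytes are known to raise glycolysis, and smooth muscle relies on it as well. Statins inhibit HMG-CoA reductase in the mevalonate pathway, which starts from the acetyl-CoA that pyruvate can supply.

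With atorvastatin, 6 of the 10 measured genes had positive differences, where 47.0% of all tested genes did, and 4 had negative ones. Positive differences numbered 8 of 10 with libraries scaled to equal sums or with a trend on gene length removed, and 7 of 10 with median-of-ratios scaling. These settings also move the rest: 58.1% of all tested genes were positive with equal sums, 53.3% with the length trend removed and 47.8% with median-of-ratios scaling. None of the 10 passed the test. Over all genes, limma on log2(FPKM + 1) with Benjamini-Hochberg adjustment called 0 of 13590 (0%), while 974 (7.17%) had an unadjusted p under 0.05. The groups did not overlap in 2 of the 10: Hk2, where every atorvastatin library lay above every vehicle library, as in 5.53% of all tested genes, and Gpi1, where every atorvastatin library lay below, as in 8.85%. The median difference of the 10 genes was 0.13 on the log2 scale, against -0.02 over all tested genes. Within the vehicle group, library 3 had the highest value in 9 of the 10 genes, and within the atorvastatin group library 2 had the lowest in all 10. Slc2a1, Pfkl, Gapdh, Pgk1 and Ldha each varied more than 2-fold over the 6 libraries, and their groups overlapped. A bulk measurement does not tell fewer cells that express a gene from less of its RNA per cell.

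**Figure D1:**
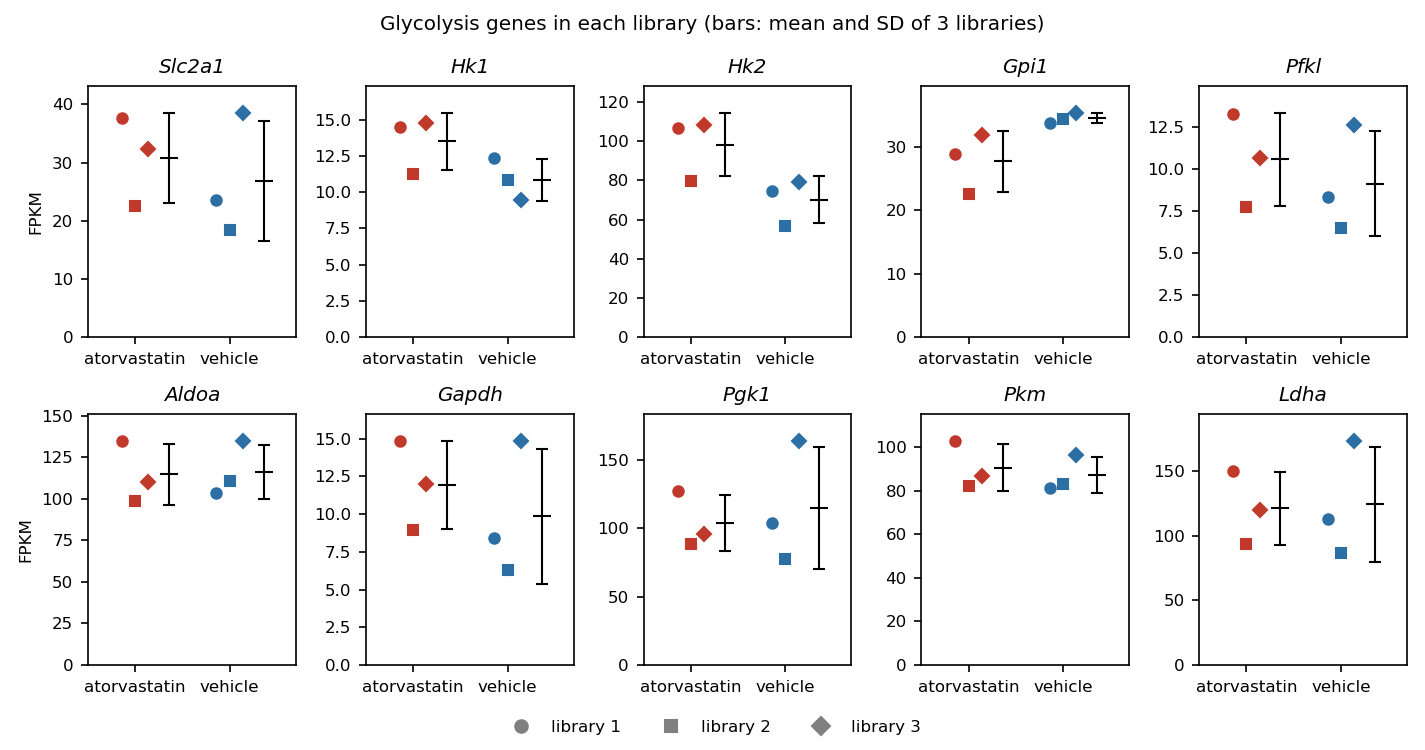
FPKM (vertical axes, from 0) of the 10 glycolysis genes in the 3 atorvastatin libraries (red, left) and the 3 vehicle libraries (blue, right), with marker shape for the library number and black bars for the mean and SD. Hk2 and Gpi1 are the panels without overlap, and vehicle library 3 lies on top of its group in every panel except that of Hk1.

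The bases upstream of the start of 6 genes are shown here, those of Hk2 and Gpi1 because their groups did not overlap and those of Slc2a1, Pfkl, Gapdh and Pgk1 because these vary more than 2-fold over the libraries and have 1 listed start each. They are the 250 bases before the RefSeq transcript start on build GRCm38.p6, read 5′ to 3′ along the gene: chr6:82774455-82774704 on the minus strand for Hk2, chr7:34230337-34230586 on the minus strand for Gpi1, chr4:119108495-119108744 on the plus strand for Slc2a1, chr10:78009808-78010057 on the minus strand for Pfkl, chr6:125165774-125166023 on the minus strand for Gapdh and chrX:106186850-106187099 on the plus strand for Pgk1. Capitals mark ACGTG or GCGTG on either strand, the core forms of the element that HIF-1 is known to bind.
Hk2: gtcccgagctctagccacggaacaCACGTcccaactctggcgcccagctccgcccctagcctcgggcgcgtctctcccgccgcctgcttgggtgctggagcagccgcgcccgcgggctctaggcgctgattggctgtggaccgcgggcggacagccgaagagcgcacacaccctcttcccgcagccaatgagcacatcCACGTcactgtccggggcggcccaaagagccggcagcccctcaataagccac
Gpi1: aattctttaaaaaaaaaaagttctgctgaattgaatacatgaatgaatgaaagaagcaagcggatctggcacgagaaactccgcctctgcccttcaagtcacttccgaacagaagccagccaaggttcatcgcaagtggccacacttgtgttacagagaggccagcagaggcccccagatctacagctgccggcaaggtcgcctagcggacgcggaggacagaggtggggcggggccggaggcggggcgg
Slc2a1: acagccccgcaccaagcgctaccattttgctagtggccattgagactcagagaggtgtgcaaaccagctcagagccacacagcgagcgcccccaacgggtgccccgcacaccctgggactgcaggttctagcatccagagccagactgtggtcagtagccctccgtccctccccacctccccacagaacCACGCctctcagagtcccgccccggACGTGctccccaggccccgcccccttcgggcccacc
Pfkl: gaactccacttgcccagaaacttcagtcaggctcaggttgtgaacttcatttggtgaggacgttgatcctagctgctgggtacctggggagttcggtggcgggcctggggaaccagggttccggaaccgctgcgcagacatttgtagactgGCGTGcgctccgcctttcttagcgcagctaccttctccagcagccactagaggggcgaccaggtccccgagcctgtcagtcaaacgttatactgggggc
Gapdh: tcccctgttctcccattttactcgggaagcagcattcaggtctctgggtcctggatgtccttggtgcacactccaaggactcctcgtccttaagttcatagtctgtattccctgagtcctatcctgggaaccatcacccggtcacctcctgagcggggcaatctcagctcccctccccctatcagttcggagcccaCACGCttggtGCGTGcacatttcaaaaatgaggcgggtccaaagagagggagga
Pgk1: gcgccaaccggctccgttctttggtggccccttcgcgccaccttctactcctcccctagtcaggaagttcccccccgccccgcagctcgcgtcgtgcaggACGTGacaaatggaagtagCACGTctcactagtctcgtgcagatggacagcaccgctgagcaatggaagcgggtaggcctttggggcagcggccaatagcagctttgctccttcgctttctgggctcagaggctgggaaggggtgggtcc
Hk2 and Pgk1 each held 2 matches to ACGTG, Slc2a1 held 1 match to ACGTG and 1 to GCGTG, Pfkl held 1 and Gapdh 2 matches to GCGTG only, and Gpi1 held none. RefSeq lists 15 starts for the 10 genes, up to 3 for a gene. ACGTG stood upstream of 7 of the 15 starts, which belong to 6 genes, and ACGTG or GCGTG upstream of 11 of the 15, which belong to 9 genes. These counts have limits. The Aldoa starts with ACGTG have overlapping windows that share the same match. For the Pkm and Ldha starts with ACGTG, no GENCODE transcript of the gene held the bases that follow the start. The other listed starts of Pkm and Ldha had no ACGTG. Of all 32851 mouse promoters of the same length, 16.6% held ACGTG and 38.6% held either. CACGTG, the E-box that Myc and its relatives are known to bind, contains ACGTG on both strands. It was found upstream of 1 of the 10 genes, Ldha, at the start that matched no GENCODE transcript. The other listed start of Ldha held none. Of all promoters 6.02% held CACGTG, a share per start and not per gene. A match is a string of letters in this window and not a measured binding site.

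Glucose enters the cell through Slc2a1 (GLUT1, ENSMUSG00000028645, mm10 chromosome 4, 119108711 to 119137983, plus strand). It had 37.7, 22.5 and 32.3 FPKM in the atorvastatin libraries, against 23.6, 18.5 and 38.5 FPKM in the vehicle libraries. The highest and the lowest value were both from vehicle libraries. A log2 difference of 0.23 (SE 0.30) was obtained, with a 95% interval from -0.48 to 0.94 (limma adjusted p = 0.862). It was 0.51 without vehicle library 3 and 0.43 without atorvastatin library 2, and 0.07 without atorvastatin library 1 and 0.0011 without vehicle library 2. Slc2a3 (GLUT3), the other main glucose transporter of immune cells, had 3.56, 2.96 and 3.74 FPKM with atorvastatin and 2.83, 2.77 and 0.87 FPKM with vehicle. Every atorvastatin library lay above every vehicle library, as in 5.53% of all tested genes, and vehicle library 3 lay far below the rest. The log2 difference of Slc2a3 was 0.55 (SE 0.28, unadjusted p = 0.0930 and adjusted p = 0.696 in limma).

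Hexokinases trap glucose as glucose 6-phosphate, and Hk2 is an inducible form. Hk2 (ENSMUSG00000000628, chromosome 6, 82725025 to 82774454, minus strand) had 107, 79.7 and 108 FPKM in the atorvastatin libraries, against 74.5, 56.6 and 79.4 FPKM in the vehicle libraries. Atorvastatin library 2 and vehicle library 3 nearly met, and atorvastatin libraries 1 and 3 lay well above all vehicle libraries. The means were 98.3 ± 16.1 FPKM with atorvastatin and 70.1 ± 12.0 FPKM with vehicle (SD, n = 3 each), a ratio of 1.40. The log2 difference was 0.48 (SE 0.19), with a 95% interval from 0.02 to 0.94, an unadjusted p of 0.0418 in limma and an adjusted p of 0.692. The exact permutation test over the 6 libraries gave p = 0.1, the smallest that 3 against 3 allow. Leaving out each library in turn gave differences between 0.34 and 0.63.

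Hk1 (ENSMUSG00000037012, chromosome 10, 62268855 to 62379908, minus strand), the constitutive hexokinase, was less abundant. It had 14.5, 11.2 and 14.8 FPKM with atorvastatin and 12.3, 10.8 and 9.44 FPKM with vehicle. Vehicle library 3, which was high for most of the pathway, was the lowest library here. Atorvastatin minus vehicle came to 0.29 on the log2 scale (SE 0.15, limma adjusted p = 0.696), and it was 0.20 without vehicle library 3. Hk3, the hexokinase of myeloid cells, had 6.23, 5.20 and 6.51 FPKM with atorvastatin and 2.63, 4.66 and 4.82 FPKM with vehicle. Every atorvastatin library was again above every vehicle library, as in 5.53% of all tested genes. The log2 difference of Hk3 was 0.50 (SE 0.20, unadjusted p = 0.0446 and adjusted p = 0.692 in limma). It was 0.28 without vehicle library 1. That library also had the lowest sum of the 8 macrophage and monocyte markers, 124 FPKM. Vehicle library 3 had the highest sum, 263 FPKM, and its Hk3 lay below that of every atorvastatin library. The part of these cells in the Hk3 values was not tested. Hk2 made up 83.4% ± 0.448 of the summed FPKM of Hk1, Hk2 and Hk3 with atorvastatin and 82.2% ± 3.25 with vehicle (SD, n = 3 each; exact two-sided permutation p = 0.8). All 3 hexokinases thus had positive differences while the mean share of Hk2 differed by less than the SD of the vehicle libraries, though by more than that of the atorvastatin libraries. The size of the share depends on the gene length used. The union of annotated exons is 8532 nt for Hk1, against 3851 nt for its main transcript, and 5969 against 5513 nt for Hk2. Per main transcript, the means over all 6 libraries were 91.2 FPKM for Hk2, 27.0 for Hk1 and 5.73 for Hk3, a lower share of Hk2.

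Gpi1, which turns glucose 6-phosphate into fructose 6-phosphate, was the member with the largest negative difference. Gpi1 (ENSMUSG00000036427, chromosome 7, 34201330 to 34230336, minus strand) had 28.8, 22.5 and 31.9 FPKM in the atorvastatin libraries, against 33.8, 34.3 and 35.3 FPKM in the vehicle libraries. The vehicle libraries were tightly grouped and the atorvastatin libraries were spread below them. The means were 27.7 ± 4.78 FPKM with atorvastatin and 34.5 ± 0.795 FPKM with vehicle (SD, n = 3 each). The log2 difference was -0.32 (SE 0.15), with a 95% interval from -0.67 to 0.04 (limma unadjusted p = 0.0707, adjusted p = 0.696), and the exact permutation test gave p = 0.1. Without atorvastatin library 2 the difference was -0.18.

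Phosphofructokinase commits the sugar to glycolysis, and Pfkl encodes its liver-type subunit. Pfkl (ENSMUSG00000020277, chromosome 10, 77986947 to 78009807, minus strand) had 13.3, 7.78 and 10.7 FPKM with atorvastatin and 8.34, 6.48 and 12.6 FPKM with vehicle. Its order over the libraries was close to that of Slc2a1. On the log2 scale the difference was 0.21 (SE 0.27, limma adjusted p = 0.858), 0.44 without vehicle library 3 and 0.01 without vehicle library 2. Pfkl made up 31.8% ± 6.22 of the summed FPKM of the liver, muscle and platelet subunits with atorvastatin and 31.3% ± 8.80 with vehicle (SD, n = 3 each; exact permutation p = 1). The platelet-type subunit Pfkp was the most abundant of the 3 in all 6 libraries, with 16.8, 18.2 and 19.1 FPKM with atorvastatin and 16.3, 16.9 and 14.3 FPKM with vehicle. This share also depends on the gene length used. Per main transcript, the means over all 6 libraries were 17.7 FPKM for Pfkl, 4.84 for Pfkm and 54.7 for Pfkp, a lower share of Pfkl. The deposited end of Pfkl differs from that in GENCODE, so the length behind its FPKM, taken here as 6675 nt, is uncertain.

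Aldoa splits fructose 1,6-bisphosphate into trioses. Its main ID (ENSMUSG00000030695, chromosome 7, 126795234 to 126800751, minus strand) had 135, 98.7 and 110.3 FPKM with atorvastatin and 104, 111 and 135 FPKM with vehicle. The groups overlapped almost wholly, with a log2 difference of -0.02 (SE 0.18, 95% interval from -0.44 to 0.40, limma adjusted p = 0.981). The second Aldoa ID (ENSMUSG00000114515, 126800790 to 126809108) had 0.59, 0.81 and 0.59 FPKM with atorvastatin and 0.41, 0.44 and 0.80 FPKM with vehicle. It lay below the filter, and the exact permutation test gave p = 0.5.

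Gapdh, which oxidises glyceraldehyde 3-phosphate and is often used as a reference gene, was listed at a much lower level than its neighbours in the pathway. Gapdh (ENSMUSG00000057666, chromosome 6, 125161715 to 125165773, minus strand) had 14.8, 8.96 and 12.0 FPKM with atorvastatin and 8.40, 6.30 and 14.9 FPKM with vehicle. The vehicle libraries spanned more than the atorvastatin libraries, and the log2 difference was 0.31 (SE 0.31, limma adjusted p = 0.821), 0.62 without vehicle library 3 and 0.058 without vehicle library 2. A blastn search of its main coding transcript against all annotated transcripts found 177 other genes with an alignment of at least 300 nt at 90% identity or more. Of these, 168 were annotated as pseudogenes, 7 as protein-coding and 2 as long noncoding RNA genes. Each gene was counted with its whole FPKM, also where only part of it matched. The FPKM of these 177 genes summed to 429, 354 and 371 in the atorvastatin libraries and to 348, 348 and 397 in the vehicle libraries. The copies together thus held 26.8 to 55.3 times the FPKM of Gapdh itself. On estimated fragments, Gapdh held 6.42% to 12.5% of what was listed for it and its copies. The estimate takes 4133 nt as the length of Gapdh, more than its deposited gene span, which likely overstates this share. It also counts each copy whole, which may understate it. With Gapdh and copies summed, the log2 difference was 0.08 instead of 0.31 (exact permutation p = 0.5). The sources used here do not say how reads were shared among near-identical genes, so the listed Gapdh value is uncertain as a level and as a reference.

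**Figure D2:**
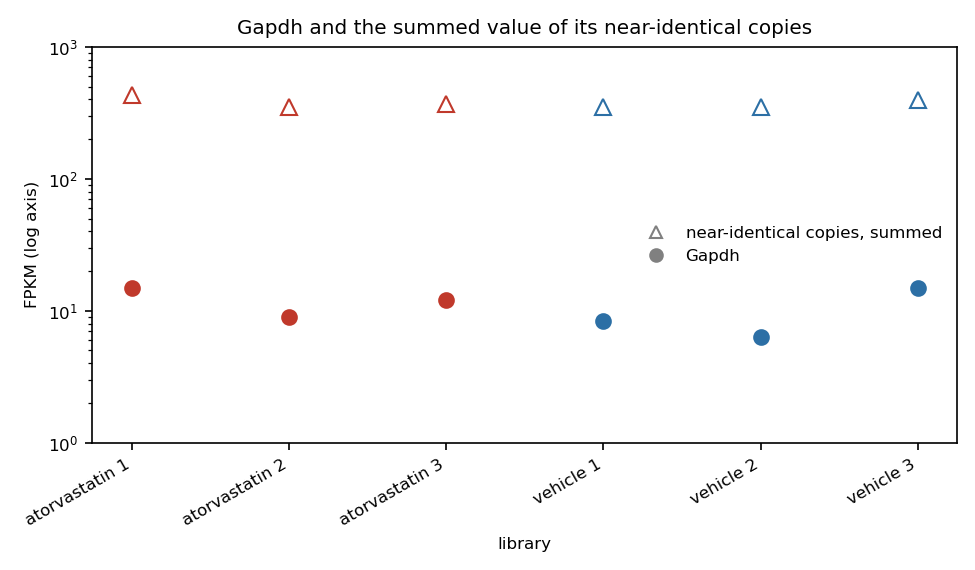
FPKM on a log axis of Gapdh (filled circles) and of its 177 near-identical copies summed (open triangles) in each atorvastatin library (red) and vehicle library (blue). Gapdh lies between 6.30 and 14.9 FPKM in all 6 libraries, and the copies between 348 and 429 FPKM.

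The same search found far fewer copies of the other members: 13 for Ldha, 8 for Pkm, 6 for Aldoa, 4 for Pgk1, 1 for Gpi1 and 0 for Slc2a1, Hk1, Hk2 and Pfkl. Their summed values stayed at or below 7.96 FPKM, the highest sum, which was that of the copies of Pgk1. For these members the copies held a small part of the listed signal.

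Pgk1 makes the first ATP of the pathway. Pgk1 (ENSMUSG00000062070, chromosome X, 106187100 to 106203699, plus strand) had 127, 88.6 and 95.8 FPKM with atorvastatin and 104, 77.3 and 164 FPKM with vehicle. Both extremes were vehicle libraries. On average the log2 difference was -0.10 (SE 0.29, limma adjusted p = 0.945) and turned to 0.19 without vehicle library 3 and to 0.01 without atorvastatin library 2.

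Pkm encodes the pyruvate kinase of most tissues, which makes pyruvate and the last ATP. Pkm (ENSMUSG00000032294, chromosome 9, 59656368 to 59679375, plus strand) had 103, 82.2 and 86.9 FPKM with atorvastatin and 81.5, 83.1 and 96.6 FPKM with vehicle. It had the narrowest range of the 10 genes, a highest value 1.26 times the lowest. The log2 difference was 0.06 (SE 0.15, 95% interval from -0.29 to 0.41, limma adjusted p = 0.937). A gene of unknown coding status, Gm49759, overlaps Pkm on the same strand and had 7.11 to 14.3 FPKM. A value per gene does not separate the M1 and M2 splice forms. Pklr, the liver and red cell pyruvate kinase gene, did not exceed 0.10 FPKM in any library.

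Ldha encodes the lactate dehydrogenase subunit that favours lactate formation. Ldha (ENSMUSG00000063229, chromosome 7, 46841475 to 46855627, plus strand) had 149.7, 93.7 and 119.7 FPKM with atorvastatin and 113, 86.2 and 173 FPKM with vehicle. The highest and lowest values were again vehicle libraries 3 and 2. The log2 difference was -0.0021 (SE 0.29, 95% interval from -0.70 to 0.69, limma adjusted p = 1.00), 0.27 without vehicle library 3, -0.23 without vehicle library 2, 0.17 without atorvastatin library 2 and -0.17 without atorvastatin library 1. Ldha made up 96.4% ± 1.35 of the summed FPKM of Ldha and Ldhb with atorvastatin and 96.0% ± 0.645 with vehicle (SD, n = 3 each; exact permutation p = 0.7). For each of the isoenzyme shares given here the adjusted p was 1, and 3 libraries against 3 cannot give a p below 0.1.

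**Figure D3:**
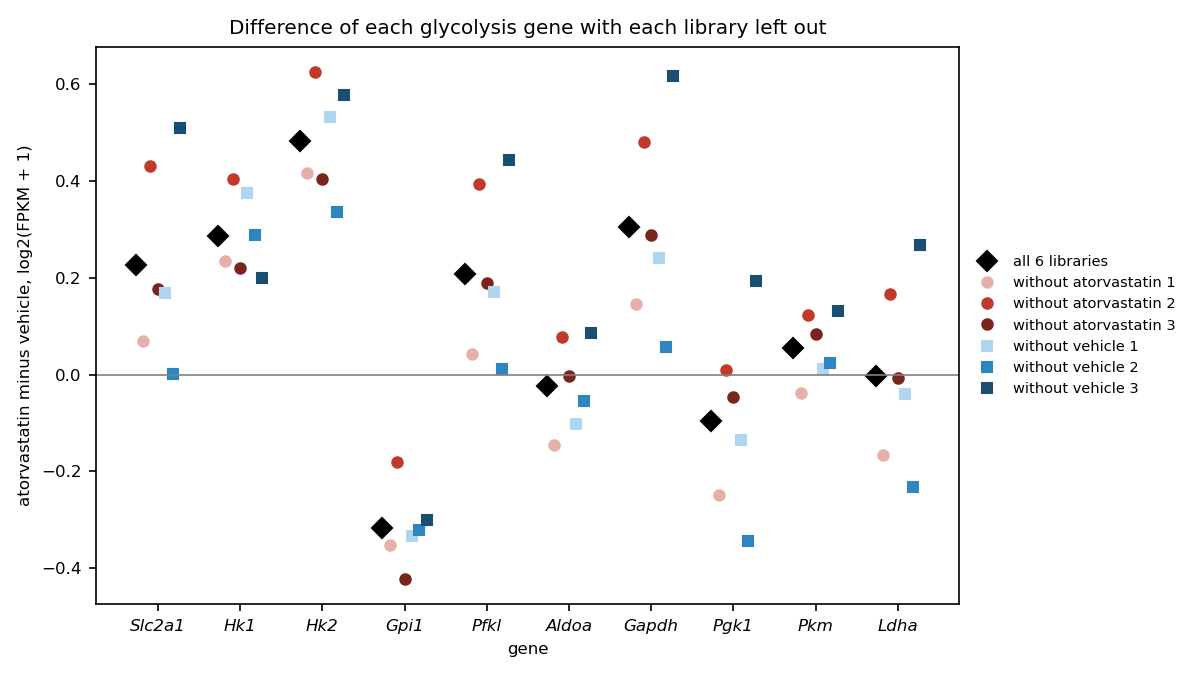
Log2(FPKM + 1) difference, atorvastatin minus vehicle (vertical axis), of the 10 glycolysis genes with all 6 libraries (black diamonds), without each atorvastatin library (red circles) and without each vehicle library (blue squares). Hk2 stays between 0.34 and 0.63 and Gpi1 between -0.42 and -0.18, while Pgk1 spans -0.34 to 0.19 and Ldha -0.23 to 0.27.

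By mean level per length, the order in the atorvastatin libraries was Ldha, Aldoa, Pgk1, Hk2, Pkm, Slc2a1, Gpi1, Hk1, Gapdh and Pfkl. In the vehicle libraries Pkm stood above Hk2 and Gpi1 above Slc2a1, and the order was otherwise the same. Neighbours in the order overlapped over the libraries, except Pkm above Slc2a1 and Gpi1 above Hk1 with atorvastatin, and Pkm above Hk2, Hk2 above Gpi1 and Slc2a1 above Hk1 with vehicle. The authors' FPKM divide by the union of all annotated exons, as far as low values show, and this length exceeds the main transcript by different amounts in different genes. For Hk2 it is 5969 nt against 5513 nt for the main coding transcript. For Gapdh the GENCODE exons give 4133 nt against 1420 nt. Their end lies beyond the deposited one, and 4133 nt exceeds the whole deposited gene span. The length that the authors used for Gapdh is thus shorter and not known. Per main transcript, Ldha and Aldoa still led and Pfkl was still the lowest, though its length is uncertain too, while Pkm then stood above Pgk1. With 4133 nt Gapdh stood above Slc2a1 and Hk1, at 31.7 against 31.0 and 27.0 FPKM, and a shorter length would lower it. Summed with its copies, each counted whole, Gapdh came to 355 to 444 FPKM, above every other member in every library, so its place in the order is undetermined.

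The 17 tested genes among 22 other enzymes and transporters of the route had 11 positive and 6 negative differences, where 47.0% of all tested genes were positive. Their median was 0.09, and 0 were called. With equal sums, where 58.1% of all tested genes were positive, 14 were positive and 3 negative, and without vehicle library 2 there were 7 positive and 10 negative with a median of -0.02. At an unadjusted p under 0.05 there was 1, Hk3, on the higher side, where 3.13% of all tested genes stood, and 0 on the lower side, where 4.04% did. Pgam1, a phosphoglycerate mutase, had 65.2, 41.6 and 45.3 FPKM with atorvastatin and 44.3, 39.2 and 75.6 FPKM with vehicle, and Eno1, the main enolase, had 40.4, 25.5 and 33.1 FPKM with atorvastatin and 27.9, 26.2 and 43.4 FPKM with vehicle. In both genes vehicle library 3 was the highest of the 6. Hkdc1, Aldoc and Pklr were among those below the filter, and Aldoc did not exceed 1.01 FPKM.

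A list of control genes included the gene with the largest positive difference of all these lists. It holds the Pfkfb genes, which set the level of fructose 2,6-bisphosphate, the strongest activator of phosphofructokinase, and also Tigar, a phosphatase, and Txnip, which is not an enzyme of glycolysis. Pfkfb3, the inducible kinase that makes fructose 2,6-bisphosphate, had 18.0, 17.2 and 38.9 FPKM in the atorvastatin libraries, against 12.7, 10.8 and 10.8 FPKM in the vehicle libraries. Every atorvastatin library was above every vehicle library, as in 5.53% of all tested genes, and atorvastatin library 3 was far above the rest. The log2 difference was 0.95 (SE 0.30, unadjusted p = 0.0170 and adjusted p = 0.692 in limma), and 0.58 without atorvastatin library 3. Pfkfb2, a related kinase, had 2.96, 2.45 and 3.01 FPKM with atorvastatin and 1.94, 1.93 and 1.51 FPKM with vehicle, with a log2 difference of 0.45 (SE 0.12, unadjusted p = 0.00888 and adjusted p = 0.692 in limma). In limma 3.13% of all tested genes were higher at an unadjusted p under 0.05. Of the 6 tested genes of this mixed list 5 had positive differences, where 47.0% of all tested genes did, with a median of 0.24, and 0 were called. There were 4 positive without vehicle library 3, with a median of 0.13, and 4 without atorvastatin library 2, and the median was 0.10 with a pseudocount of 5 and 0.38 with one of 0.1. Txnip, a glucose-induced brake on glucose uptake and the most abundant gene of the list, had 99.7, 173 and 117 FPKM with atorvastatin and 146, 145 and 80.9 FPKM with vehicle. Its groups overlapped, and it was lowest in vehicle library 3 and atorvastatin libraries 1 and 3, where Slc2a1 was highest.

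All 7 genes of the pentose phosphate pathway, which makes NADPH and ribose from glucose 6-phosphate, had negative differences, from -0.34 to -0.13 with a median of -0.21, where 53.0% of all tested genes were negative. All 7 stayed negative under every scaling and with each library left out, but the median was -0.085 without vehicle library 2. None was called or had an unadjusted p under 0.05 in limma. Taldo1, transaldolase, had 36.9, 35.5 and 33.3 FPKM with atorvastatin and 37.1, 46.8 and 44.6 FPKM with vehicle. Every atorvastatin library lay just below every vehicle library, as in 8.85% of all tested genes. Pgd, 6-phosphogluconate dehydrogenase, had 15.5, 13.4 and 14.6 FPKM with atorvastatin and 16.6, 17.1 and 14.4 FPKM with vehicle, with overlap. The next branch leads to the mitochondria. A list of 13 tested genes around this step holds the pyruvate carriers Mpc1 and Mpc2, subunits of pyruvate dehydrogenase, the kinases Pdk1 to Pdk4 that switch it off and the phosphatases Pdp1 and Pdp2 that switch it on. Differences were negative for 11 of the 13, where 53.0% of all tested genes were negative, with a median of -0.11. Of the 13, 0 were called or had an unadjusted p under 0.05. The 2 positive ones were both kinases, Pdk2 at 0.11 (SE 0.12) and Pdk4 at 0.25 (SE 0.13), while Pdk1 was at -0.20 (SE 0.17) and Pdk3 at -0.17 (SE 0.11). There were 9 negative without atorvastatin library 2 or without vehicle library 3, with medians of -0.04 and -0.06, and the median was -0.04 with equal sums. Dld and Pdha1, subunits of pyruvate dehydrogenase, had log2 differences of -0.15 (SE 0.11) and -0.13 (SE 0.12). Of the gluconeogenesis list G6pc3, a glucose 6-phosphatase found in most tissues, had 5.34, 6.55 and 6.68 FPKM with atorvastatin and 7.29, 9.76 and 8.30 FPKM with vehicle. Its log2 difference was -0.39 (SE 0.14, unadjusted p = 0.0280 and adjusted p = 0.692 in limma), where 4.04% of all tested genes were lower at an unadjusted p under 0.05. Pck2, the mitochondrial phosphoenolpyruvate carboxykinase, had one of -0.12 (SE 0.21), and Pck1, Fbp1, Fbp2 and G6pc were below the filter.

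**Figure D4:**
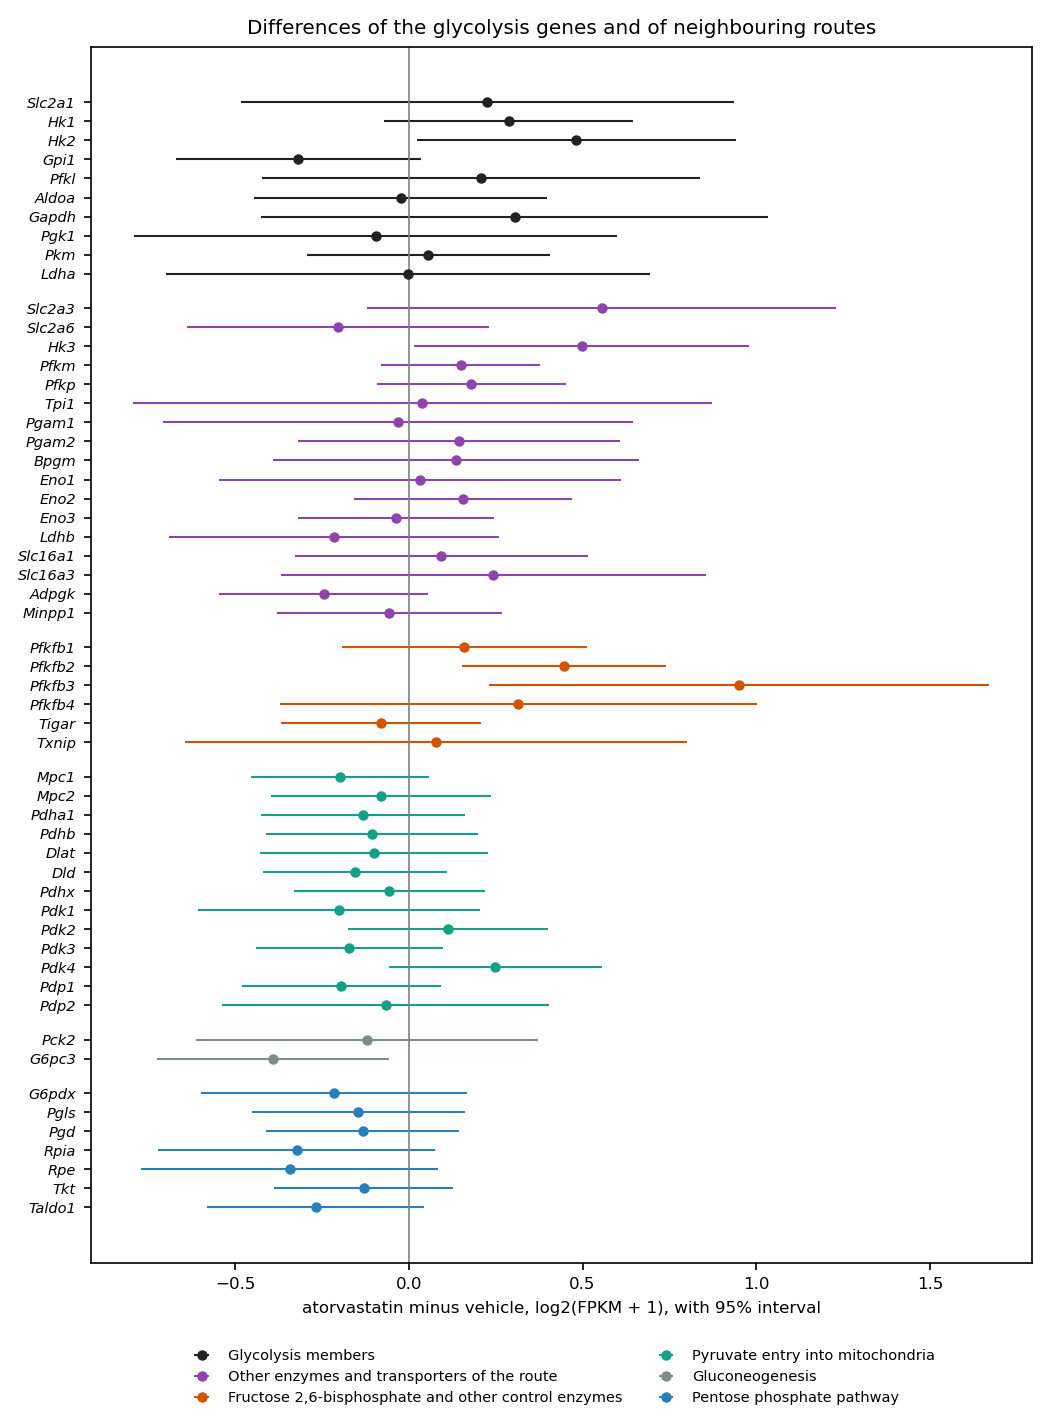
Log2(FPKM + 1) difference, atorvastatin minus vehicle (horizontal axis), with its 95% interval for each tested gene of the glycolysis members (black) and of 5 neighbouring lists (colours). The intervals of Hk2, Hk3, Pfkfb2, Pfkfb3 and G6pc3 exclude 0 without adjustment, and no gene passed after adjustment over all genes.

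Of the 10 tested transcriptional regulators of glycolysis, which include Hif1a and Myc, 4 had positive and 6 negative differences. Of all tested genes 47.0% were positive. The median of the regulators was -0.02, and 0 were called. With equal sums, where 58.1% of all tested genes were positive, the split was 7 positive and 3 negative. Hif1a had 45.9, 39.4 and 49.3 FPKM with atorvastatin and 45.6, 34.7 and 51.4 FPKM with vehicle, a log2 difference of 0.04 (SE 0.18). Myc had 61.7, 41.9 and 60.6 FPKM with atorvastatin and 60.1, 49.5 and 78.3 FPKM with vehicle, a log2 difference of -0.19 (SE 0.23), which was -0.0089 without atorvastatin library 2, -0.017 without vehicle library 3 and -0.34 without vehicle library 2. Within each group both were lowest in library 2, and the groups overlapped. The 18 tested hypoxia-induced genes, on a list that also holds Pfkfb3, Pfkfb4, Pdk1 and Egln3, had a median difference of 0.09. Differences were positive for 13 and negative for 5, where 47.0% of all tested genes were positive, and 0 were called. With equal sums, 15 were positive and 3 negative. Without vehicle library 2 there were 9 of each sign with a median of 0.0036. Ndrg1 and Ddit4, the most abundant of them, had log2 differences of 0.17 (SE 0.16) and 0.20 (SE 0.22). With single libraries left out, Ndrg1 ranged between 0.058, without atorvastatin library 1, and 0.27, without atorvastatin library 2, and Ddit4 between 0.039, without vehicle library 2, and 0.38, without vehicle library 3.

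Over the libraries, the median of the 10 glycolysis genes, centred on the mean of each gene, was 0.29, -0.24 and 0.10 log2 units in the atorvastatin libraries and -0.13, -0.46 and 0.30 in the vehicle libraries. That of the hypoxia-induced genes was 0.21, -0.14 and 0.10 with atorvastatin and -0.13, -0.34 and 0.34 with vehicle. By these medians both lists were lowest in vehicle library 2 and highest in vehicle library 3. The mean of the glycolysis genes was instead highest in atorvastatin library 1, at 0.29 against 0.26 in vehicle library 3. The median of all tested genes stayed between -0.06 and 0.04. The summed FPKM of the 6 smooth muscle markers, led by Acta2 and Tagln, was 1027, 733 and 792 with atorvastatin and 624, 574 and 1088 with vehicle, and was also highest in vehicle library 3 and lowest in vehicle library 2. All 6 had positive differences, where 47.0% of all tested genes did, and 3 of 6 without vehicle library 2 or without atorvastatin library 1. None was at 0, and the part of these cells in the glycolysis values was not tested.

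**Figure D5:**
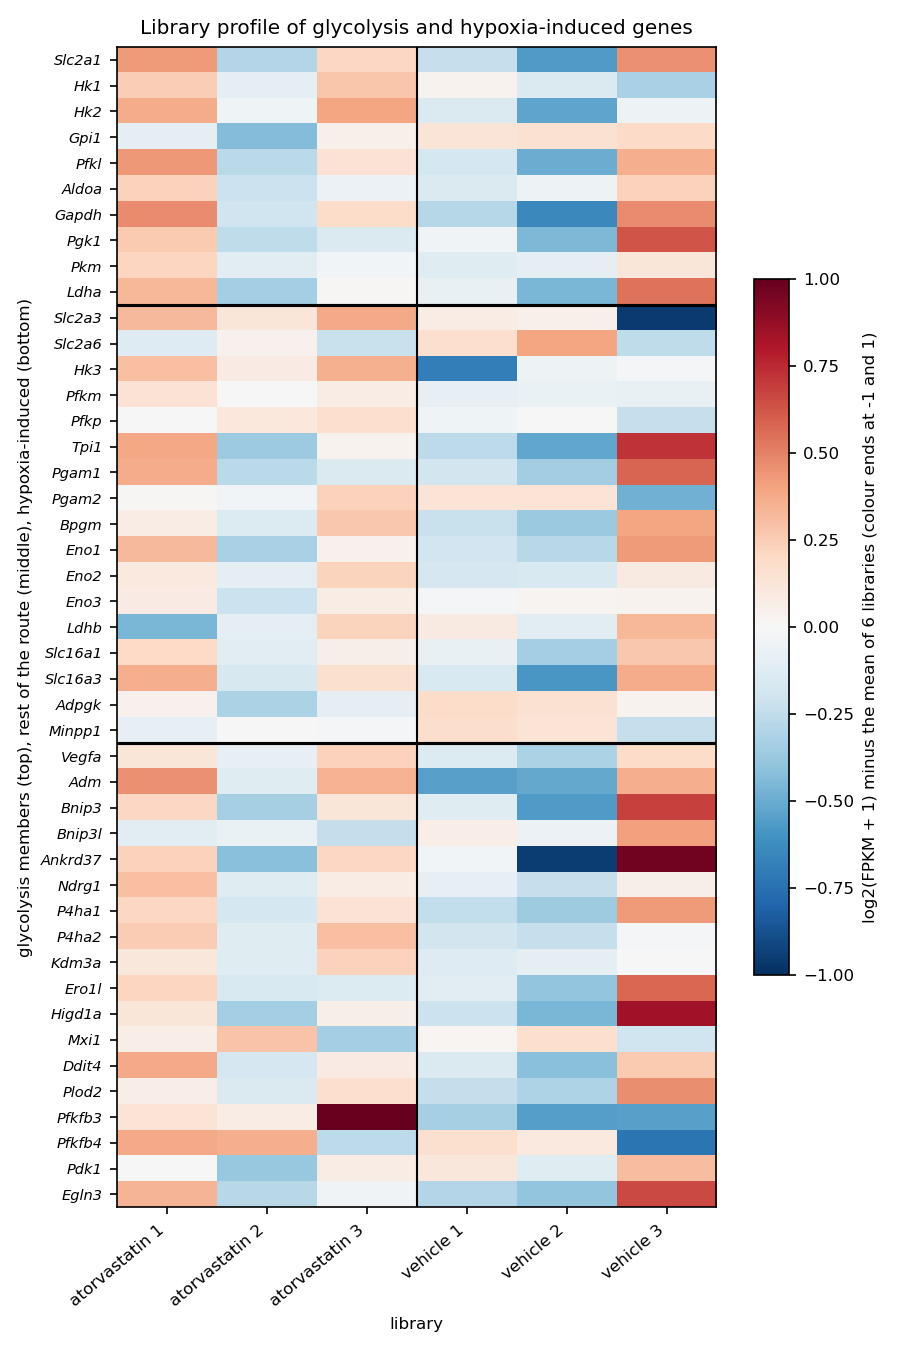
Log2(FPKM + 1) minus the mean of the 6 libraries (colour) for the tested glycolysis members (top), the rest of the route (middle) and hypoxia-induced genes (bottom) in the 3 atorvastatin libraries (left) and the 3 vehicle libraries (right). In the top and bottom blocks vehicle library 3 is red and vehicle library 2 is blue for most rows, a contrast within the vehicle group. In the middle block the rows are mixed, with medians of 0.04 in vehicle library 3 and -0.07 in vehicle library 2.

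Other markers bear on the makeup of the samples. All 8 B cell markers, led by Cd79a and Cd79b, had negative differences, with sums of 281 to 305 FPKM with atorvastatin and 351 to 470 FPKM with vehicle, and the 6 dendritic cell markers, led by Ccr7 and Fscn1 and with 5 negative differences, summed to 140 to 158 FPKM with atorvastatin and 160 to 216 FPKM with vehicle. All 10 genes of the handling response, stress genes led by Hspa1b and Hspa1a that cell isolation is known to induce, had positive differences, with sums of 6549 to 9083 FPKM with atorvastatin and 5827 to 5948 FPKM with vehicle. The sums of these 3 lists did not overlap between groups, though those of the dendritic cell markers nearly met, at 158 against 160 FPKM. Of all tested genes taken singly, 14.4% did not overlap, 47.0% had positive differences and 53.0% had negative ones. The part of these 3 lists in the glycolysis values was not tested. The 8 macrophage and monocyte markers, led by Lyz2 and C1qb and with positive differences in all 7 tested, or 4 of 7 without vehicle library 1, summed to 204 to 221 FPKM with atorvastatin and 124 to 263 FPKM with vehicle, and the 10 markers of colonic epithelium, led by Epcam and Krt8 and with negative differences in all 6 tested, to 18.5 to 42.7 FPKM with atorvastatin and 32.4 to 42.0 FPKM with vehicle. The sums overlapped in 6 further lists: with atorvastatin against vehicle they were 2182 to 4592 against 1687 to 3739 FPKM for plasma cells (Jchain, Xbp1), 60.3 to 68.0 against 64.3 to 81.5 for T cells (Thy1, Lck), 694 to 923 against 723 to 924 for fibroblasts (Dcn, Col3a1) and 227 to 296 against 259.6 to 278 for endothelium (Lyve1, Plvap). They were 6.94 to 10.6 against 9.06 to 17.1 FPKM for neutrophils (Retnlg, S100a9) and 18.9 to 28.2 against 16.4 to 32.3 for mast cells (Kit, Mcpt1). Differences were negative for all 4 tested neutrophil markers and all 5 tested mast cell markers, but 3 of 5 mast cell markers were positive without vehicle library 2, and 1 of 4 neutrophil markers with the length trend removed. No listed marker was at 0 in every library, and Krt20, Cdx2, Slc26a3, Cx3cr1, Cxcr2, Mmp9 and Fcer1a stayed below 1 FPKM.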

How the data were processed

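RNA-seq libraries of colonic lamina propria cells, 3 of atorvastatin and 3 of vehicle, were analysed from the FPKM values that the authors deposited. FastQC 0.11.2, Bowtie and mm10 are named in the submitters' processing notes; the quantifier, annotation and strandedness were not given in the sources used here. Gene symbols came from GENCODE mouse release 21 (GRCm38), which matched 55141 of 55401 IDs and gave the same start and end for 51957; the files' ends of Gapdh and Pfkl differ from it.

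The files hold no counts. In genes of 300 to 900 nt with 1 transcript, low FPKM values clustered at the worth of 1 fragment, which implies 15.9 to 21.6 M fragments per library. In genes with several transcripts, 47.0% of values between 0.5 and 1.5 fragments lay within 0.1 of 1 fragment with the union of exons as length, against 13.6% with the longest transcript. The 10 tested members thus had an estimated 463 to 12415 fragments per library, a counting error of at most 4.65%. The lowest number is that of Gapdh with a length of 4133 nt, more than its deposited gene span. Its fragments are thus likely overstated and its counting error understated. With 2 decimals and many values off whole multiples, whole reads were not recovered for nearly all genes, so no count test was run.

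The 13590 genes that reached 1 FPKM in 3 or more libraries were tested as log2(FPKM + 1), which understates changes of low genes, with limma 3.58.1 (trend, R 4.3.3) and Benjamini-Hochberg adjustment over all of them at 0.05. The fit was tested on simulated data. Single values and shares were compared by exact two-sided permutation. The genes and lists were chosen with earlier results of these data known. Named outside the members were the 2 most abundant genes of each list and those with an unadjusted p under 0.05 in limma; Slc2a3, Pfkp, Pklr, Hkdc1, Aldoc and the Pdk genes were added after their values were seen. Near-identical copies were sought with BLAST 2.17.0. Pseudocounts of 0.1 and 5, no filter or 5 FPKM, scaling to equal sums (with and without immunoglobulin and mitochondrial genes) and by median of ratios, a length trend, a replicate block and leaving out libraries were the alternatives; summing Gapdh with its copies was added after seeing the data. Some items of the lists are not reported here.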

Additional observations from a re-analysis of the deposited data

How the results depend on the processing

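None of the 10 members was called under any of the 15 alternative fits, and the medians of their differences ran from 0.0021 without atorvastatin library 1 to 0.28 without atorvastatin library 2 (0.13 with all libraries). Hk2 stayed positive and Gpi1 negative in every fit. Without vehicle library 3, and likewise without atorvastatin library 2, 9 of 10 members were positive. Over all genes, calls ranged from 0 to 2 when single libraries were left out (1 without atorvastatin library 1, 2 without atorvastatin library 3) and were 0 in the other fits. Near-zero differences turned sign with scaling: with equal sums Aldoa was 0.045, Ldha 0.067 and Pgam1 0.036; with equal sums without immunoglobulin and mitochondrial genes Aldoa was 0.050, Ldha 0.071 and Pgam1 0.041; with the length trend removed Aldoa was 0.034, Ldha 0.043 and Pgam1 0.063; with median-of-ratios scaling Ldha was 0.0037. With single libraries left out, the differences ranged from -0.15 to 0.086 for Aldoa, -0.23 to 0.27 for Ldha, -0.34 to 0.19 for Pgk1, -0.039 to 0.13 for Pkm, -0.22 to 0.25 for Pgam1, -0.12 to 0.25 for Eno1, -0.11 to 0.16 for Hif1a, -0.20 to 0.25 for Txnip and -0.34 to 0.028 for Pck2. The isoenzyme shares, in percentage points, ranged from -0.60 to 2.52 for Hk2, -3.75 to 1.66 for Slc2a1, -3.36 to 5.26 for Pfkl and -0.29 to 0.89 for Ldha. The causes of these shifts were not tested. Of genes with an unadjusted p under 0.05, 43.6% were higher, against 67.3% with equal sums, 71.6% with equal sums without immunoglobulin and mitochondrial genes and 66.4% with the length trend removed. Over all tested genes, same-numbered libraries did not deviate together (r = -0.11, 0.14 and -0.02 across genes for numbers 1, 2 and 3). Among the 10 members, library 2 was the lowest of its group in 10 with atorvastatin and in 6 with vehicle. Library 3 was the highest in 9 with vehicle but in 3 with atorvastatin, where library 1 was the highest in 7. With the number as a replicate block 0 genes were called and 852 had an unadjusted p under 0.05, the difference of Hk2 was 0.48 (SE 0.12, limma adjusted p = 0.728) and that of Gpi1 -0.32, and the paired sign-flip test of the share differences (1.23, -1.56, 0.42 and 0.49 percentage points for Hk2, Slc2a1, Pfkl and Ldha) cannot give a p below 0.25. Depth is an estimate here. For the 10 tested members the estimated counting error is small beside the spread between libraries, but for the second Aldoa ID it reached 43.8%.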

Other observations

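Among 4225 tested genes outside the lists with a mean of at least 10 FPKM, the 5 whose centred log2(FPKM + 1) values over the 6 libraries lay closest to the mean of the 10 glycolysis genes were Cxcl16, a transmembrane chemokine, Tnfrsf12a, the receptor for TWEAK, Nfkbia, an inhibitor of NF-kappaB, Postn, the matrix protein periostin, and Sdc4, a cell surface proteoglycan. Their root-mean-square distances from that mean were 0.038, 0.041, 0.043, 0.047 and 0.049 log2 units. The glycolysis genes themselves lay at distances from 0.11 for Pfkl to 0.28 for Gpi1. The 5 genes were picked as the nearest of 4225 and the glycolysis genes were not picked by distance, so these distances cannot be compared. The likeness is over 6 libraries that share their groups and processing and is given as a description.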
